A study of Mus musculus with 29 samples.

Results

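The transcripts of 8 transcription factor genes of lymphoid cells, the interferon regulatory factor (IRF) genes *Irf2*, *Irf4* and *Irf8* and the ETS domain genes *Spi1*, *Ets1*, *Elf1*, *Erg* and *Fli1*, were examined in mouse bone marrow B cell progenitors with and without the transcription factor Pax5. The genes were chosen by name, with earlier results of these data known. Each matched 1 of the 24732 entries of the mm9 expression tables and 1 of the 25588 entries of the mm10 tables. The 8 RNA-seq libraries are part of a series of 29 samples on a leukemia-associated Pax5 fusion protein, and its chromatin samples are not analysed here. The mm9 tables hold 3 libraries of wild-type (Pax5+/+) and 2 libraries of Pax5-/- pro-B cells, each sorted ex vivo from C57BL/6 mice of an age that is not given in the sources used here. The mm10 tables hold 3 libraries of Pax5+/+ Meox2-Cre pro-B cells, which were controls of 3 weeks of age, also on the C57BL/6 background, pooled and carrying a ubiquitously active Cre recombinase gene inserted at the *Meox2* locus. For these 3 libraries the sample labels give Pax5+/+ while the study's own sample list gives Pax5+/-. The Pax5-/- allele is a germline null, and since the study's methods sort Pax5-deficient progenitors and pro-B cells by different sets of surface markers, genotype and sorting gate cannot be told apart. Whether replicate libraries come from separate animals is not stated, and p-values measure the spread between these libraries, which may be technical.

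IRF proteins bind DNA elements with repeated GAAA, and most were first known from the interferon response, while Irf4 and Irf8 serve mainly as factors of lymphoid and myeloid differentiation. ETS proteins bind a GGAA core, and several of them act together in blood stem cells, in early lymphocytes and in endothelium. Irf4 and Irf8 bind DNA weakly alone, and are known to be recruited by the ETS factors PU.1, the product of *Spi1*, and Spi-B to composite elements that hold a GGAA next to a GAAA, among them the enhancers of the immunoglobulin light chain genes.

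Values are given in TPM, a measure of transcripts corrected for length that sums to 1000000 in each library, so levels of different genes can be compared but the depth in reads is unknown. *Pax5* itself was listed at 342, 386 and 391 TPM in Pax5+/+, at 43.0 and 39.1 TPM in Pax5-/- and at 376 to 397 TPM in Meox2-Cre cells. Whether the remaining *Pax5* reads come from outside the deleted part was not tested. The 10 early B cell markers examined were all above 5 TPM on average in every group. Of these 10, 6 were lower in Pax5-/- cells and 4 did not pass the test, while 21.5% of all genes tested were lower and 15.6% were higher. The sum of the 10 was 12706 to 15274 TPM in Pax5+/+ and 4563 and 4876 TPM in Pax5-/- libraries. The part of this in the changes of the factors was not tested. Ratios of low values put the depth of Pax5-/- replicate 2 at 1.54 times and of replicate 1 at 0.855 times that of Pax5+/+ replicate 1. The median log2 fold change over the 12066 genes tested was -0.12 (Pax5-/- against Pax5+/+), and changes should be read against that value. In such bulk samples fewer cells of a type and less RNA per cell cannot be told apart.

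Of the 8 factors, 4 were lower and 1 was higher in Pax5-/- cells (limma on log2(TPM + 0.5), adjusted p below 0.05). *Irf4* and *Irf8* fell more than 4-fold, *Ets1* and *Erg* fell about 2-fold, *Spi1* rose 2-fold, and *Irf2*, *Elf1* and *Fli1* did not pass the test. Among all genes tested 21.5% were lower and 15.6% were higher by the same rule, so either direction was called for 37.1% of genes and for 5 of the 8 factors. With the additional thresholds of the study (a change over 3-fold, over 5 TPM on average in a genotype, and no antigen receptor gene segments), *Irf4* and *Irf8* were called lower and no factor was called higher, against 3.19% and 2.74% of the genes tested outside those segments. The lowest value of any factor in any library was 19.5 TPM, so none passed the filter on low values through 1 genotype only. The Pax5-/- libraries lay below all Pax5+/+ libraries for 5 factors and above them for 1, while 37.4% and 26.1% of all genes were so separated. The median log2 fold change of the 8 factors was -0.54.

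**Figure D1:**
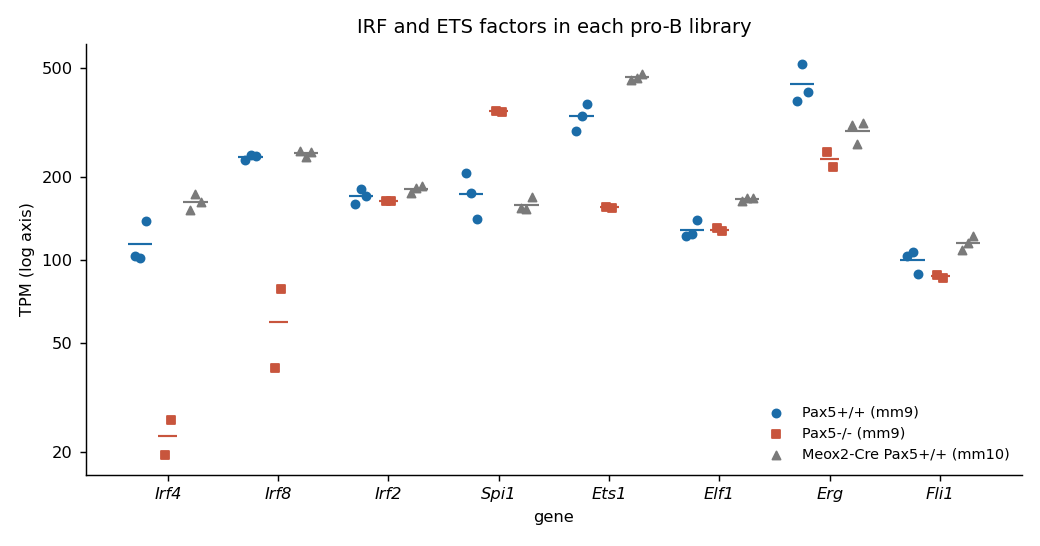
TPM values (log axis) of the 8 factors in each library, with circles for the 3 Pax5+/+, squares for the 2 Pax5-/- and triangles for the 3 Meox2-Cre libraries and short lines for group means. The Pax5-/- squares lie far below the circles for Irf4 and Irf8, below them for Ets1 and Erg, and above them for Spi1. The triangles come from another genome build and were normalized apart from the rest.

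*Irf4* encodes a factor required, with Irf8, for the step from the pre-B cell to light chain rearrangement, and later for plasma cells. It lies at chr13:30841095-30858796 on the plus strand of mm9. Its level was 104, 102 and 139 TPM with Pax5 and 19.5 and 26.2 TPM without it. The highest Pax5-/- value thus stayed far under the lowest Pax5+/+ value. The means were 115 ± 20.9 TPM (SD, n = 3) against 22.9 ± 4.78 TPM (SD, n = 2), which is a log2 fold change of -2.30 ± 0.18 (SE, 4.94-fold lower, adjusted p = 0.00011). In the distribution of all entries, 7.12% were higher than *Irf4* in Pax5+/+ and 23.6% in Pax5-/- cells.

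*Irf8* encodes a factor of B cells, monocytes and dendritic cells that opposes the granulocyte fate. The gene lies at chr8:123260258-123280594 on the plus strand of mm9, where the GENCODE annotation also places *Gm20388* on the same strand over its whole length. Its level was nearly constant in Pax5+/+ libraries at 231, 241 and 239.9 TPM, while the values without Pax5 were 40.4 and 78.4 TPM. Both Pax5-/- values were far below the Pax5+/+ values, but they differed 1.94-fold from each other, more than for any other of the 8 factors. The log2 fold change was -2.06 ± 0.24 (SE, 4.18-fold lower, adjusted p = 0.00069), and without 1 Pax5-/- library it was -1.59 (replicate 2 alone) or -2.54 (replicate 1 alone). Both genes were thus separated from no change. Tested against a 3-fold change instead (limma's treat), neither *Irf4* (adjusted p = 0.089) nor *Irf8* (adjusted p = 0.89) passed after adjustment over all genes tested. The 95% confidence intervals, which are not adjusted over genes, were -2.73 to -1.88 for *Irf4* and -2.63 to -1.50 for *Irf8*. That of *Irf4* lay wholly beyond a 3-fold fall, and that of *Irf8* did not.

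The 250 bases upstream of the outermost RefSeq start are shown for *Irf4* and *Irf8*, which moved together, and for *Irf2*, an IRF gene that did not pass the test (RefSeq, GRCm38.p6, all on the plus strand, 5′ to 3′). The windows are chr13:30748983-30749232 for *Irf4*, chr8:120736108-120736357 for *Irf8* and chr8:46739495-46739744 for *Irf2*. The capitals mark matches on either strand to the ETS core GGAA, the composite ETS-IRF element (GGAA, any 2 bases, then GAAA), the interferon response element (GAAA, any 2 bases, then GAAA) and the STAT element TTCNNNGAA, which reads the same on both strands.
Irf4: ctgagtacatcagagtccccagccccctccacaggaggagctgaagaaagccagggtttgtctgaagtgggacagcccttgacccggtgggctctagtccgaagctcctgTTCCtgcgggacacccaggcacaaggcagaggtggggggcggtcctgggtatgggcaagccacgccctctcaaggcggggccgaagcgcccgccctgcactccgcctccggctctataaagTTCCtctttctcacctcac
Irf8: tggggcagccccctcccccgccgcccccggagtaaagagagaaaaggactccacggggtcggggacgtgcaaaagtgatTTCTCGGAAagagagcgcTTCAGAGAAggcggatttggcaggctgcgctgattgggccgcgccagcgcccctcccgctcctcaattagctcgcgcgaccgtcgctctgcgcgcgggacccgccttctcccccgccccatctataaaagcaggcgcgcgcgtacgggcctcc
Irf2: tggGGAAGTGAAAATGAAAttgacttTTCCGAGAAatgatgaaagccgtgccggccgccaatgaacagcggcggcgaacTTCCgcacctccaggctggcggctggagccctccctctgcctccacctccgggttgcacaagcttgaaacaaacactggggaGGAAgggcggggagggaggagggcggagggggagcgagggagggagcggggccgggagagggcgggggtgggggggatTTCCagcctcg
The *Irf4* window held 2 ETS cores and none of the longer motifs. The *Irf8* window held 2 STAT elements, which began 171 and 153 bases upstream of the start, and the first of them contains the only ETS core of the window. The *Irf2* window began with a composite element and an interferon response element that share 4 bases, at 247 and 241 bases upstream, followed by a STAT element at 224 bases and by 5 ETS cores in all, of which 1 lies in the composite and 1 in the STAT element. Of 32841 promoter windows of the same length, 93.5% held an ETS core, 2.3% a composite element, 2.98% an interferon response element and 7.02% a STAT element. These matches describe letters only, and binding was not measured here. RefSeq windows were matched for 5 of the 8 factors, and *Spi1*, *Ets1* and *Fli1* had no entry.

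*Irf2*, whose product acts mostly as a repressor of interferon-responsive genes and competes with Irf1, lies at chr8:47825099-47932812 (mm9, plus strand). It was at 159.5, 182 and 171 TPM in Pax5+/+ and at 164 and 164 TPM in Pax5-/- libraries. The Pax5-/- values fell inside the Pax5+/+ range. The log2 fold change was -0.06 (95% confidence interval -0.29 to 0.17, adjusted p = 0.66), and its sign turned to 0.06 when the libraries were rescaled by median ratios.

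The 8 IRF genes examined were all tested. *Irf4* and *Irf8* were lower, *Irf7* was higher, and 5 did not pass. Among all genes tested 21.5% were lower and 15.6% were higher, so the counts for this family are near those shares. The median log2 fold change of the 8 was -0.07. *Irf7*, the factor that drives the type I interferon response of plasmacytoid dendritic cells, was at 8.11, 23.5 and 18.2 TPM in Pax5+/+ and at 61.4 and 88.4 TPM in Pax5-/- libraries. Both Pax5-/- values were above all Pax5+/+ values, although the Pax5+/+ libraries differed 2.9-fold among themselves. Its log2 fold change was 2.24 ± 0.40 (SE, adjusted p = 0.0046), and over 14 alternative settings the adjusted p ranged from 0.0017 to 0.11, above 0.05 with no filter on low values (0.11) and without Pax5-/- replicate 2 (0.094). The ranges for *Irf1*, *Irf3* and *Irf5* overlapped between the genotypes. *Irf9*, a subunit of the interferon-stimulated complex ISGF3, was at 25.2 to 49.6 TPM in Pax5+/+ and at 51.6 and 57.4 TPM in Pax5-/- libraries (log2 fold change 0.56 ± 0.26 SE, adjusted p = 0.13).

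Summed over these 8 genes, IRF transcripts came to 786, 913 and 906 TPM in the Pax5+/+ libraries and to 602 and 683 TPM in the Pax5-/- libraries. *Irf4* and *Irf8* together made up 42.5%, 37.5% and 41.8% of that sum in Pax5+/+ cells, and 9.95% and 15.3% in Pax5-/- cells. *Irf2* accounted for 20.3%, 19.9% and 18.9% in Pax5+/+ and for 27.2% and 24% in Pax5-/- cells, where it was the most abundant IRF transcript. *Irf7* went from between 1.03% and 2.57% to 10.2% and 12.9%. In the Meox2-Cre libraries *Irf4* and *Irf8* together held 39.4% to 41.6%. The ratio of *Irf8* to *Irf4* was 2.23, 2.36 and 1.73 in Pax5+/+ and 2.07 and 2.99 in Pax5-/- libraries and overlapped between them.

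**Figure D2:**
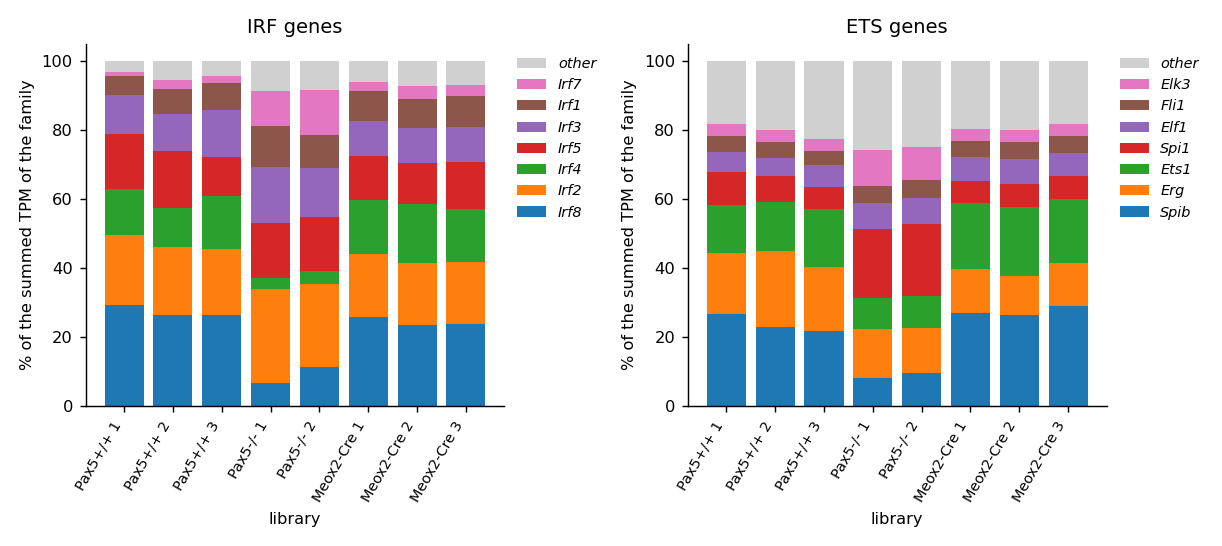
Share of each gene in the summed TPM of the 8 IRF genes (left) and of the 26 ETS genes (right), as stacked bars to 100% for each library. In the 2 Pax5-/- bars the Irf8 and Irf4 segments shrink and the Irf7 segment widens, and the Spib segment shrinks from at least 21.9% to at most 9.62% while the Spi1 segment widens to 20% and 20.8%.

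Several markers of plasmacytoid dendritic cells, which themselves use Irf8 and Irf7, were higher in Pax5-/- cells, where *Irf8* was lower. Between the 2 Pax5-/- libraries alone, the sum of these markers and *Irf8* were both higher in replicate 2. Of the 10 markers examined, 8 were tested, of which 5 were higher and 1 was lower in Pax5-/- cells. Among all genes tested 15.6% were higher and 21.5% were lower. The higher ones were *Cox6a2* (log2 fold change 2.57), *Runx2* (2.52), *Irf7* (2.24), *Siglech* (2.20) and *Pacsin1* (1.92). The sum over the 10 was 97.5 to 129 TPM in Pax5+/+ libraries, 153 TPM in Pax5-/- replicate 1 and 219.8 TPM in replicate 2. Of the 10, 9 were higher in replicate 2 than in replicate 1. This was not particular to them, since 8 of 10 granulocyte and monocyte markers were also higher in replicate 2. Of the 10 early B cell markers, 4 were. The share of all genes higher in replicate 2 was not determined, and the 2 libraries differed in depth, so these counts have no baseline. *Siglech*, the defining surface marker, was at 0.11, 0.57 and 1.12 TPM in Pax5+/+ and at 1.79 and 9.06 TPM in Pax5-/- libraries, so it passed the filter only through the genotype where it is high. *Tcf4*, the main regulator of these cells, was the lower one, at 78.3 to 89.8 TPM in Pax5+/+ and 52.3 and 52.4 TPM in Pax5-/- libraries, and *Klk1* was at 0 in both Pax5-/- libraries and at 0.14 to 0.43 TPM in Pax5+/+ libraries. *Irf7* belongs to this list too. The part of such cells in the levels of *Irf8* and *Irf7* was not tested.

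*Spi1* encodes PU.1, which is needed at a high level for macrophages and at a lower level for B cells. It lies at chr2:90922547-90955913 on the plus strand of mm9, under the older symbol *Sfpi1*. It was at 207, 176 and 141 TPM in Pax5+/+ libraries and at 349 and 347 TPM in Pax5-/- libraries. The 2 Pax5-/- values were nearly equal and above all Pax5+/+ values, whose highest and lowest differed 1.47-fold. The log2 fold change was 1.01 ± 0.16 (SE, 2.01-fold higher, adjusted p = 0.0026). The adjusted p ranged from 0.0015 to 0.064 over 14 alternative settings, and it exceeded 0.05 with no filter on low values (0.064) and without Pax5-/- replicate 2 (0.054).

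Spi-B, encoded by *Spib*, is the closest relative of PU.1 and binds the same sites in B cells. *Spib* was at 574, 544 and 483 TPM in Pax5+/+ and at 140.1 and 161 TPM in Pax5-/- libraries, with no overlap (log2 fold change -1.82 ± 0.11 SE, adjusted p = 4e-05). The ratio of *Spib* to *Spi1* transcripts within a library was thus 2.77, 3.09 and 3.44 in Pax5+/+ and 0.40 and 0.46 in Pax5-/- cells, and the order of both genes was the opposite in the 2 genotypes. In the Meox2-Cre libraries the ratio was 3.97 to 4.34. Their summed level was 781, 720.2 and 624 TPM in Pax5+/+ and 489 and 508 TPM in Pax5-/- libraries. *Spic*, the third gene of this subfamily, was under 1 TPM in all 8 libraries.

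Markers of granulocytes and monocytes, cells with much PU.1, did not move with *Spi1* as a group. The sum over 10 markers was 47.6 to 257 TPM in Pax5+/+, 62.7 and 93.9 TPM in Pax5-/- and 447 to 1229 TPM in the Meox2-Cre libraries, whose *Spi1* values overlapped those of Pax5+/+ cells. Much of the Meox2-Cre sum was *S100a8* (108 to 401 TPM) and *S100a9* (171 to 568 TPM). Of the 8 tested, 2 were lower in Pax5-/- cells (*Elane*, *Itgam*) and 1 was higher (*Ctsg*), while 21.5% of all genes tested were lower and 15.6% were higher. *Mpo* lay above the Pax5+/+ range, at 11.1 to 34.5 TPM in Pax5+/+ and 37.8 and 42.1 TPM in Pax5-/- libraries, but did not pass the test (adjusted p = 0.081). *Lyz2* was at 16.2 to 57.5 TPM in Pax5+/+ and at 13.3 and 14.3 TPM in Pax5-/- libraries, and *Cd14* was at or under 0.082 TPM in all 5 libraries.

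*Ets1* and *Fli1* are neighbours on chromosome 9 that are transcribed away from each other, with 94.8 kb between their annotated starts. *Ets1*, a factor of early B, T and natural killer cells that binds DNA with Pax5 at the *Cd79a* promoter, lies at chr9:32443806-32565405 (mm9, plus strand). It was at 295, 335 and 371 TPM in Pax5+/+ and at 156 and 155 TPM in Pax5-/- libraries. The genotypes did not overlap, and the 2 Pax5-/- values were close to each other. The log2 fold change was -1.09 ± 0.12 (SE, 2.13-fold lower, adjusted p = 0.00044).

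*Fli1*, a factor of blood stem cells, megakaryocytes and endothelium, lies at chr9:32229793-32348974 (mm9, minus strand). It was at 104, 107 and 88.8 TPM in Pax5+/+ and at 88.5 and 86.3 TPM in Pax5-/- libraries. The higher Pax5-/- value was just under the lowest Pax5+/+ value. The change of -0.19 (95% confidence interval -0.45 to 0.08, adjusted p = 0.24) did not pass the test and was close to the median of all genes. The ratio of *Ets1* to *Fli1* was 2.84, 3.14 and 4.18 in Pax5+/+ and 1.77 and 1.79 in Pax5-/- libraries, with no overlap.

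T cells, which also express *Ets1*, were looked for by their markers. Their sum over 8 markers was 91.5 to 115 TPM in Pax5+/+ and 244 and 248 TPM in Pax5-/- libraries, where most of it was *Lck*. Of the 3 tested, *Lck* (54.8 to 72.2 against 196 and 198 TPM) and *Cd4* (0.37 to 0.71 against 3.97 and 5.88 TPM) were higher, the latter entering the test only through the genotype where it is high. *Cd3e* was at 0 in both Pax5-/- libraries and at 0.088 to 0.43 TPM in Pax5+/+ libraries, and *Cd3d*, *Cd3g* and *Cd8a* were under 1 TPM throughout.

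*Erg*, a factor required for blood stem cells and for the start of the B cell program, lies at chr16:95580776-95808200 (mm9, minus strand). It was the most abundant of the 8 transcripts in Pax5+/+ libraries at 381, 519.9 and 409.6 TPM, and was at 248 and 218 TPM in Pax5-/- libraries. The Pax5-/- values were below all Pax5+/+ values. The log2 fold change was -0.90 ± 0.15 (SE, 1.86-fold lower, adjusted p = 0.0032). The adjusted p ranged from 0.0019 to 0.069 over 14 alternative settings, and it was over 0.05 with no filter on low values (0.066) and without Pax5-/- replicate 2 (0.069). The ratio of *Erg* to *Fli1* was 3.66, 4.87 and 4.61 in Pax5+/+ and 2.8 and 2.52 in Pax5-/- libraries, with no overlap. The ratio of *Erg* to *Ets1* overlapped between genotypes at 1.1 to 1.55 in Pax5+/+ and 1.41 and 1.59 in Pax5-/- libraries.

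*Erg* and *Fli1* are also expressed in megakaryocytes and endothelium. Of 5 megakaryocyte markers 4 were tested and 1, *Gp9*, was higher in Pax5-/- cells (4.83 to 8.12 against 28.3 and 33.9 TPM), while *Pf4* was at 2.11 to 10.2 TPM in Pax5+/+ and 1.39 and 3.02 TPM in Pax5-/- libraries. The summed level of the 5 was 12.2 to 20.4 TPM in Pax5+/+ and 34 and 36.2 TPM in Pax5-/- libraries, where most of it was *Gp9*. Of 5 endothelial markers 3 were tested and 1, *Kdr*, was lower, at 0.88 to 1.39 against 0.03 and 0.05 TPM, and it entered the test only through the genotype where it is high. *Tek* was at 0 in both Pax5-/- libraries and at 0 to 0.11 TPM in Pax5+/+ libraries. The summed level of these 5 was 67.1 to 101 TPM in Pax5+/+ and 78.2 and 86.5 TPM in Pax5-/- libraries, nearly all of it *Pecam1*.

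*Elf1*, a broadly expressed factor of blood cells, lies at chr14:79881001-79982283 (mm9, plus strand) and overlaps *Wbp4* on the opposite strand by 75 bases. The table entry carries a mark of overlap, and whether counting used the strand is not given in the sources used here. *Elf1* was at 123, 125 and 139.5 TPM in Pax5+/+ and at 131 and 127 TPM in Pax5-/- libraries. The Pax5-/- values were inside the Pax5+/+ range, and the log2 fold change was 0.00 (95% confidence interval -0.23 to 0.24, adjusted p = 0.99). The interval leaves room for a change of up to 1.18-fold.

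In the ETS family, 18 of 26 genes were tested and 8 were below the filter. Of the 18, 6 were lower, 6 were higher and 6 did not pass, and the median log2 fold change was -0.13. Among all genes tested 21.5% were lower and 15.6% were higher, and their median of -0.12 was close to that of the family. Leaving out the 5 factors above, 4 of 13 were lower and 5 were higher. Beside *Spib*, the lower genes were *Elk4*, a partner of serum response factor (59 to 100.5 against 27.2 and 24 TPM; log2 fold change -1.58 ± 0.21 SE, adjusted p = 0.0013), *Gabpa* and *Etv5*. The *Elk4* change lay just under the 3-fold threshold. The higher genes were *Elk3*, *Etv6*, *Ets2*, *Erf* and *Etv1*, of which *Etv1* (means of 0.14 TPM with Pax5 and 1.13 TPM without it) passed the filter only through the genotype where it is high. *Elk3*, a repressor that is also recruited by serum response factor, was at 75.8 to 84.5 TPM in Pax5+/+ and 159 and 177 TPM in Pax5-/- libraries (log2 fold change 1.08 ± 0.10 SE, adjusted p = 0.00029). *Etv6*, a repressor needed in blood stem cells, was at 47.3 to 68 TPM in Pax5+/+ and 112 and 121 TPM in Pax5-/- libraries (log2 fold change 1.02 ± 0.16 SE, adjusted p = 0.0025). The call of 6 lower ETS genes fell to 3 without Pax5-/- replicate 2.

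**Figure D3:**
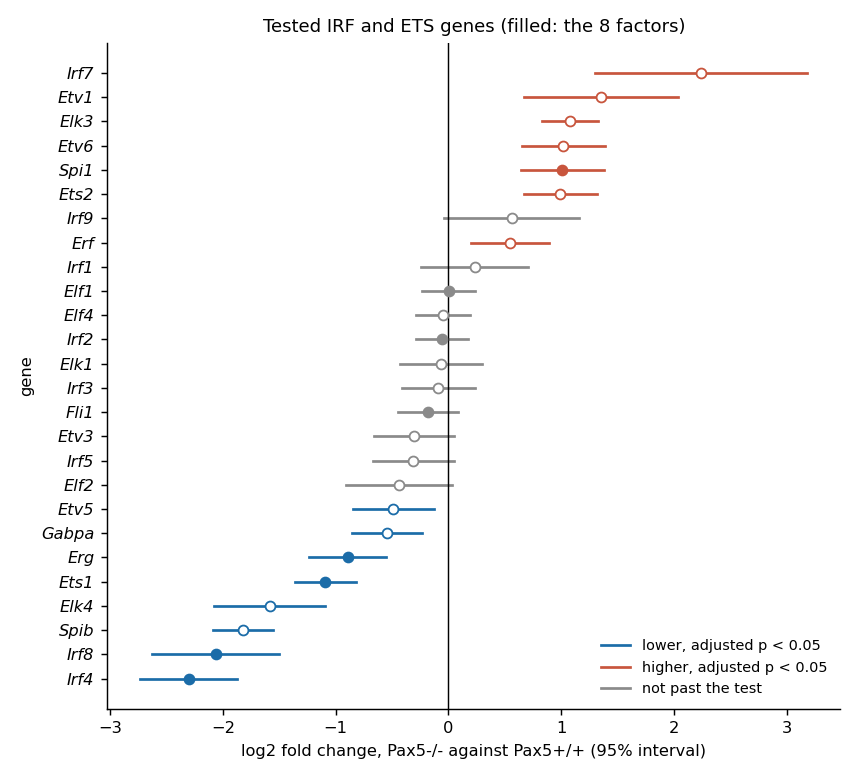
Log2 fold change (Pax5-/- against Pax5+/+) with its 95% confidence interval for the 26 tested IRF and ETS genes, with filled circles for the 8 factors. Irf4 at -2.30 and Irf8 at -2.06 lie lowest, Irf7 at 2.24 lies highest, and the intervals of Elf1, Irf2 and Fli1 include 0.

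All 26 ETS genes summed to 2147, 2359 and 2207 TPM in Pax5+/+ and to 1739 and 1672 TPM in Pax5-/- libraries. *Spib* was the most abundant ETS transcript in all 3 Pax5+/+ libraries with 26.7%, 23.1% and 21.9% of the sum, and *Spi1* was the most abundant in both Pax5-/- libraries with 20% and 20.8%. *Erg* made up 17.7%, 22% and 18.6% of the sum in Pax5+/+ and 14.3% and 13% in Pax5-/- libraries. *Ets1* went from 13.7%, 14.2% and 16.8% to 8.99% and 9.26%.

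**Figure D4:**
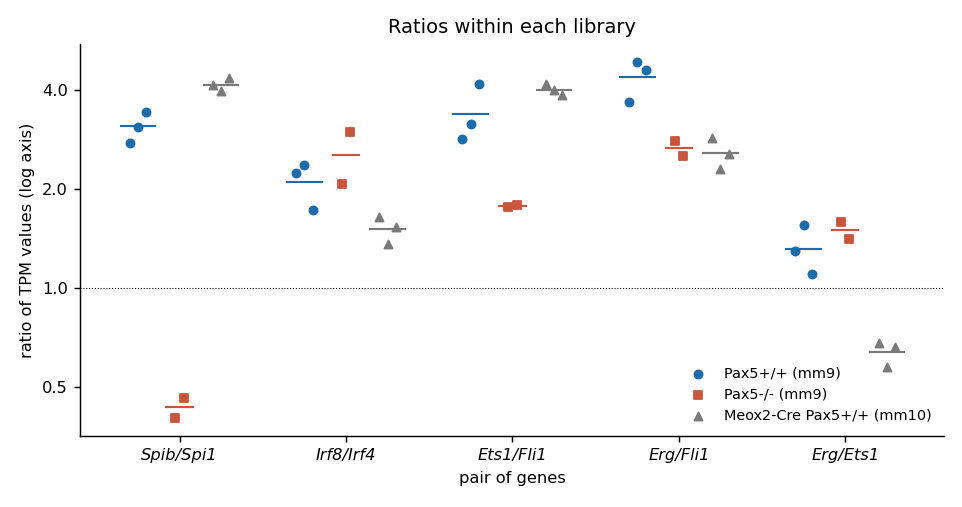
Ratios of TPM values (log axis) between pairs of genes within each library, for the 3 Pax5+/+ (circles), 2 Pax5-/- (squares) and 3 Meox2-Cre (triangles) libraries, with lines for group means. The Spib to Spi1 ratio lies above 2.7 in the circles and below 0.5 in the squares, and the Erg to Ets1 ratio is below 1 in the triangles only.

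Genes known as partners or targets of PU.1, Ets1, Irf4 or Irf8 were mostly lower in Pax5-/- cells. Of 20 such genes 18 were tested, of which 13 were lower, 1 was higher and 4 did not pass, with a median log2 fold change of -0.94. Among all genes tested 21.5% were lower and 15.6% were higher, with a median of -0.12. The list was chosen with earlier results of these data known, so its counts do not test a fall of such genes. Of the lower genes, *Ikzf3* and *Ciita* averaged under 1 TPM in Pax5-/- cells and passed the filter only through Pax5+/+ cells. Several of them are also known to be activated by Pax5, so this list cannot separate the factors. The largest decreases were those of the receptor gene *Cd72* (165 to 214 against 1.58 and 1.8 TPM; -6.37 ± 0.16 SE), the Ikaros family gene *Ikzf3* (-4.36 ± 0.39), the antigen receptor gene *Cd79a* (-3.00 ± 0.17) and the adaptor gene *Blnk* (-2.88 ± 0.21), in log2 units. The partners *Tcf3* (-1.74 ± 0.14) and *Ebf1* (-1.48 ± 0.15), factors of the B cell program, were lower too. *Bcl6*, which is repressed by Irf4 in germinal centre cells, was at 12.2 to 20.8 TPM in Pax5+/+ and 4.37 and 6.22 TPM in Pax5-/- libraries (adjusted p = 0.0035).

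None of the myeloid targets of PU.1 in the list was called higher, while *Spi1* rose. Of the granulocyte and monocyte markers above, *Ctsg* was called higher (1.54 ± 0.37 SE on the log2 scale, adjusted p = 0.015). Whether *Spi1* acted on any of these genes was not tested. *Itgam* was at 4.98 to 10.3 TPM in Pax5+/+ and 3.08 and 3.26 TPM in Pax5-/- libraries (-1.22 ± 0.32 SE on the log2 scale, adjusted p = 0.022), and *Csf2ra* was lower (adjusted p = 0.031). *Csf1r* was at 1.44 to 2.72 TPM in Pax5+/+ and 0.76 and 1.78 TPM in Pax5-/- libraries (adjusted p = 0.2), and *Csf3r* was below the filter. *Il7r*, a PU.1 target of early lymphocytes, was at 81.7 to 141 TPM in Pax5+/+ and at 154 and 158 TPM in Pax5-/- libraries (0.48 ± 0.21 SE, adjusted p = 0.11). *Runx1* was the only gene of the list past the test on the higher side (0.40 ± 0.12 SE, adjusted p = 0.034), and it lost the call in 6 of 14 alternatives. The count of lower genes was 8 without Pax5-/- replicate 1 and 6 without replicate 2.

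**Figure D5:**
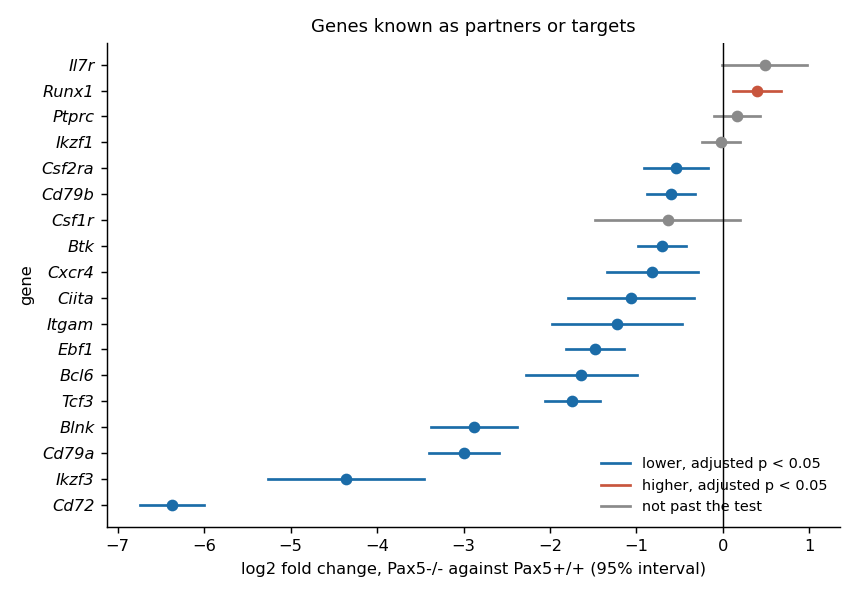
Log2 fold change (Pax5-/- against Pax5+/+) with its 95% confidence interval for the 18 tested genes known as partners or targets of PU.1, Ets1, Irf4 or Irf8. The intervals of 13 genes lie left of 0, from Cd72 at -6.37 to Csf2ra at -0.54, and Runx1 at 0.40 is the single gene called higher.

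The order of the 8 transcripts differed between the genotypes. In Pax5+/+ cells it was *Erg* (437 ± 73.5 TPM), *Ets1* (334 ± 38.3 TPM), *Irf8* (237 ± 5.48 TPM), *Spi1* (175 ± 33.4 TPM), *Irf2* (171 ± 11.2 TPM), *Elf1* (129 ± 9.12 TPM), *Irf4* (115 ± 20.9 TPM) and *Fli1* (99.8 ± 9.64 TPM; SD, n = 3 for each). The ranges of *Spi1* and *Irf2*, of *Elf1* and *Irf4* and of *Irf4* and *Fli1* overlapped, so these neighbours were not separated by their spread. In Pax5-/- cells the order was *Spi1* (348 ± 0.88 TPM), *Erg* (233 ± 21.5 TPM), *Irf2* (164 ± 0.098 TPM), *Ets1* (156 ± 1.08 TPM), *Elf1* (129 ± 2.39 TPM), *Fli1* (87.4 ± 1.54 TPM), *Irf8* (59.4 ± 26.9 TPM) and *Irf4* (22.9 ± 4.78 TPM; SD, n = 2 for each). No neighbours overlapped there, with only 2 libraries. *Irf8* moved from the third to the seventh place and *Spi1* from the fourth to the first.

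The Meox2-Cre libraries were aligned and normalized apart, so their values are set beside the others with no test. *Irf8* (251, 237 and 248 TPM), *Irf2* (176, 183 and 187 TPM) and *Spi1* (154, 153 and 170.3 TPM) overlapped the Pax5+/+ range. *Irf4* (152, 175 and 162 TPM), *Ets1* (454, 459.6 and 475 TPM), *Elf1* (164, 168 and 169 TPM) and *Fli1* (109, 115 and 123 TPM) lay above it. *Erg* (309, 265 and 315 TPM) lay below it. *Ets1* was therefore above *Erg* in the Meox2-Cre libraries and below it in all 3 Pax5+/+ mm9 libraries. The *Meox2* locus, genome build and gene models differ between these groups, and the *Pax5* genotype and the age may differ too, and their parts cannot be told apart.

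Genes whose profile over the 5 mm9 libraries was most like that of each factor were found by the root mean square distance of centred log2 values, both genotypes weighted equally. The nearest to *Irf8* were *Ell2*, an elongation factor gene of plasma cells (distance 0.15), and the class II gene *H2-Aa* (0.18), which also had a higher level in Pax5-/- replicate 2 (3.14 TPM) than in replicate 1 (0.97 TPM). The nearest to *Irf4* were *Pfn2* (0.084) and *Trib2* (0.11). The distances of the other factors to their nearest genes were smaller. They were *Ankfy1* (0.028) and *Lmbrd1* (0.032) for *Ets1*, *Apex1* (0.031) and *Grhpr* (0.040) for *Spi1*, and *Pip5k1c* (0.031) and *Plekhg2* (0.039) for *Erg*. For the factors that did not pass the test they were *Tceal8* (0.012) and *Anapc13* (0.020) for *Fli1*, *Aamdc* (0.014) and *Gp5* (0.018) for *Irf2*, and *Cetn2* (0.017) and *Prpf6* (0.020) for *Elf1*. With 12066 genes and 5 libraries such neighbours always exist, and their likeness is a description.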

How the data were processed

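RNA-seq of sorted bone marrow cells was examined in 8 libraries. After removal of ribosomal RNA reads, the authors used mm9 and TopHat (version 1.4.1a) for alignment or, for the Meox2-Cre libraries, mm10 and STAR (version 2.4.2a), counted reads per gene with featureCounts (version 1.5.0) and deposited TPM values. Depth in reads is unknown. The 12066 of 24732 genes that averaged over 1 TPM in either genotype were tested on log2(TPM + 0.5) with limma 3.58.1 (lmFit, eBayes with an intensity trend, R 4.3.3) between 3 Pax5+/+ and 2 Pax5-/- libraries, with Benjamini-Hochberg adjustment over all of them. Folds on this scale understate changes of low genes. The fit was first tested on simulated data. Groups were taken from the labels. Some items of the gene lists are not reported here. Named were the 8 factors, genes of the fixed family, partner and marker lists, and the 2 nearest profiles per factor. The factors and lists were chosen with earlier results of these data known. An exact permutation test of 3 against 2 libraries cannot go below p = 0.1 and was not used. Gene positions are from GENCODE M1 on NCBIM37, the assembly of mm9. Alternatives were other pseudocounts, filters, scalings, variance settings and thresholds, and leaving out each library. Python 3.11.15, pandas 2.3.3 and matplotlib 3.10.9 were used.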

Additional observations from a re-analysis of the deposited data

How the results depend on the processing

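Between 14 alternative settings, *Irf4*, *Irf8* and *Ets1* kept their direction and their calls, and *Irf2*, *Elf1* and *Fli1* passed the test in none. *Spi1* (1.01 with no filter on low values, 0.86 to 1.14 without single libraries) and *Erg* (-0.90 with no filter, -0.99 to -0.76 without single libraries) lost the call with no filter and without Pax5-/- replicate 2.

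With no filter, 0 factors and 0 IRF genes were higher, 2 ETS genes were lower and 3 higher, and 7 partners and targets were lower and 0 higher. Rescaling by median ratios gave 2 higher partners and targets. That count was 0 by eBayes without trend and at an adjusted p below 0.01. Strong calls were 0 lower factors by the treat test, and 1 higher factor at 2-fold. Without single libraries the counts were 0 to 1 higher factors, 0 to 2 higher IRF genes, 3 to 8 lower ETS genes, and 6 to 12 lower and 0 to 1 higher partners and targets. With all 5 libraries they were 1, 1, 6, 13 and 1.

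Signs turned for genes near 0, none of which passed the test. They turned by median ratios for *Irf2* (0.056), *Irf3* (0.026), *Elf4* (0.066), *Elk1* (0.044) and *Ikzf1* (0.095), by quantile normalization for *Irf2* (0.026), *Elf4* (0.041), *Elk1* (0.044) and *Ikzf1* (0.080), and without single libraries for *Elf1* (-0.031 to 0.059), *Irf3* (-0.19 to 0.032) and *Ikzf1* (-0.062 to 0.014).

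No paired analysis was possible because no label numbers the replicates. A lone Pax5-/- library is assumed to vary like the Pax5+/+ libraries. The Meox2-Cre means, checked after seeing the data, moved by less than 1 SD without immunoglobulin and T cell receptor genes or without single libraries.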
